A study of Arabidopsis thaliana with 12 samples.

Results

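The 9 genes described here are the cold-response factors CBF1, CBF2 and CBF3 and 6 of the genes known from the cold response, COR15A, COR15B, RD29A, RD29B, KIN1 and KIN2, out of 33201 rows in each deposited table. They were taken by their locus identifiers, and all 9 were found and tested in all 4 tables. The genes were chosen by name with earlier results of these tables known, and the values in view were the log2 responses to ABA in each genotype. Those responses and their difference between genotypes are therefore descriptions here, with no test, and support nothing. Arabidopsis thaliana seedlings 5 days old were sequenced in 12 samples. Per the labels these form 4 groups of 3: wild-type Col-0 on MS medium without treatment, Col-0 on MS medium with abscisic acid (ABA), nup1-1 on MS medium without treatment, and nup1-1 on MS medium with ABA. The labels name 1 mutant allele and give neither its nature nor the ABA dose, and a second allele or a complemented line was not analysed here.

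CBF proteins (also called DREB1) are AP2-type transcription factors that bind the C-repeat or dehydration-responsive element (CRT/DRE), with the core CCGAC, in the promoters of cold-regulated (COR) genes. In the cold, CBF transcripts accumulate within hours and the COR genes follow, which raises freezing tolerance. The COR genes encode hydrophilic proteins thought to protect membranes and other proteins. Many of these genes also carry ABA-responsive elements (ABRE, core ACGTG), bound by bZIP factors of the ABF and ABI5 group. A COR gene can thus be reached by cold through CBF factors and by drought or ABA through bZIP factors. Nuclear pore components such as HOS1 and NUP160 are known from genetic work as regulators of the cold response, which is background to a mutant in NUP1, another pore protein.

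The 9 genes lie in 4 clusters of neighbours, so most have a close copy next to them. On TAIR10, as the authors' tables give the gene models with the start counted from 1, CBF2 (AT4G25470) spans 13015277 to 13016220 on chromosome 4, CBF3 (AT4G25480) 13018214 to 13019121 and CBF1 (AT4G25490) 13021780 to 13022725, all on the minus strand and without introns. COR15B (AT2G42530, 17709036 to 17709945) and COR15A (AT2G42540, 17711032 to 17712330) are neighbours on the minus strand of chromosome 2 with 1 intron each. On the plus strand of chromosome 5 lie RD29B (AT5G52300, 21237056 to 21239529, 4 introns) and RD29A (AT5G52310, 21240849 to 21243613, 3 introns), as well as KIN1 (AT5G15960, 5209898 to 5210727) and KIN2 (AT5G15970, 5211911 to 5212665) with 2 introns each. Introns are those of the RefSeq transcript with the longest coding sequence.

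KIN1 and KIN2 are the closest pair, and their coding sequences are shown because the contrast between them below rests on telling their reads apart. From RefSeq on TAIR10.1, with the bases that differ in capitals:

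KIN1: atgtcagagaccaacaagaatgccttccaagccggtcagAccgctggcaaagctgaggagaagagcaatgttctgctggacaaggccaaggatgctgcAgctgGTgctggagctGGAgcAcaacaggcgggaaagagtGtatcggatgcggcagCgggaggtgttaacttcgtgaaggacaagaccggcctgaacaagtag

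KIN2: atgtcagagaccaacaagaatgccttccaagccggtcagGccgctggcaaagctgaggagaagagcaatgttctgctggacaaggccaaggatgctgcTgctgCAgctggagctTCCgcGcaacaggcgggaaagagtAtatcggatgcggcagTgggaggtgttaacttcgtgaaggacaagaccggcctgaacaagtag

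Of 201 aligned coding bases 191 are identical and 10 differ, and the longest stretch without a difference is 58 bases. The identity was 83.8% for COR15A and COR15B, 79.2% for RD29A and RD29B, and between 86.9% and 87.5% for the pairs of CBF genes. Of the 50-base windows of the RefSeq transcripts, 1.28% of those of KIN1 and 1.43% of those of KIN2 occurred in the other copy. For CBF1 and CBF2 the shares were 2.48% and 3.09%, for CBF2 and CBF3 0.854% and 0.596%, and for COR15A with COR15B, RD29A with RD29B, and CBF1 with CBF3 they were 0. Few exact matches of that length are thus shared, but the sources used here give neither the read length nor how the authors' counting treated strand and reads matching several genes. Values of a copy pair are therefore also given summed where that changes the picture.

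The upstream sequences of RD29A, RD29B and COR15A are shown because these genes carry the contrasts between the groups described below, and that of CBF2 because it differed in level between the genotypes. Each is the 250 bases before the RefSeq start on TAIR10.1, read along the gene's own strand, with CCGAC and ACGTG on either strand in capitals. RD29A is chr5:21240467-21240716 on the plus strand, RD29B chr5:21236771-21237020 on the plus strand, COR15A chr2:17712331-17712580 on the minus strand and CBF2 chr4:13016236-13016485 on the minus strand.

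RD29A: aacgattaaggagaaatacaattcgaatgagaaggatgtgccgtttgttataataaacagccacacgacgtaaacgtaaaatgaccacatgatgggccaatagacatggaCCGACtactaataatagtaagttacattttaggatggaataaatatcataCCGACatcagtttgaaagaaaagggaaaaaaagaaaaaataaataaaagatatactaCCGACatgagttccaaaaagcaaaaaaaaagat

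RD29B: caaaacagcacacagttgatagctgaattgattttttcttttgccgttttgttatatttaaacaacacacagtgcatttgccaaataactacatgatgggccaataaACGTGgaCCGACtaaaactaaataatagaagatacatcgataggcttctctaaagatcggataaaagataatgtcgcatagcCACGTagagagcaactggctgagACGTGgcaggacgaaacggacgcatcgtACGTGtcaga

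COR15A: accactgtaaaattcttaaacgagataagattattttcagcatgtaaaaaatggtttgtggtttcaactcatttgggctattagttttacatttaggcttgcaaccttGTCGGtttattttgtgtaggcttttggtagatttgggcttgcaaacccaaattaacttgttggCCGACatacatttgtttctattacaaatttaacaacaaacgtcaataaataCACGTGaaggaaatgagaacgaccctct

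CBF2: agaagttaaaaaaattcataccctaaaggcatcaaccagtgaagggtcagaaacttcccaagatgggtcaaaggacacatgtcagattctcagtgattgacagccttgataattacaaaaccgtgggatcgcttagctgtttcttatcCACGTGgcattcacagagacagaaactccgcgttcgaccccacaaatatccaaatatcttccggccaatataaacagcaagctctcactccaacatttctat

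In these windows the CRT/DRE core CCGAC stood at 3 positions before RD29A, 1 before RD29B, 2 before COR15A and 0 before CBF2. The ABRE core ACGTG stood at 0, 4, 2 and 2 positions. A palindromic G-box (CACGTG) holds the ABRE core on each strand and counts as 2, and both matches of COR15A and of CBF2 came from 1 G-box. Over 27443 protein-coding genes, 12% of such windows held CCGAC and 22.9% held ACGTG. The RefSeq starts of the other genes lie far upstream of the authors' gene models, by 488 bases for COR15B, 181 for KIN1, 192 for KIN2, 271 for CBF1 and 279 for CBF3. The offsets were 0 for COR15A, 15 for CBF2, 35 for RD29B and 132 for RD29A. In the 250 bases before their RefSeq starts, COR15B, KIN1, KIN2, CBF1 and CBF3 held CCGAC at 0 positions, so that 3 of the 6 COR genes held it there. ACGTG stood at 0, 1, 1, 0 and 0 positions. The window of COR15B overlaps the RefSeq model of its neighbour COR15A (17710441 to 17712330). In the 250 bases before the authors' models, a window added after seeing the data, all 6 COR genes held CCGAC, at 3 positions in RD29A, 2 in COR15A and 1 in each of COR15B, RD29B, KIN1 and KIN2, and none of the 3 CBF genes did. ACGTG was found there at 1 position in RD29A, 2 in COR15A, 3 in COR15B, 4 in RD29B, 4 in KIN1 and 6 in KIN2. In CBF1, CBF2 and CBF3 it was found at 3, 2 and 1. G-boxes, each counted as 2 of these positions, numbered 3 in KIN2, 2 in KIN1 and 1 each in COR15A, COR15B, CBF1 and CBF2. RD29A, RD29B and CBF3 held 0 G-boxes there. Of 26158 such windows, 13% held CCGAC and 24.9% held ACGTG. The longer ABRE ACGTGGC, which overlaps the core, was there at 2 positions in RD29B and 1 each in KIN2, CBF2 and CBF3 (in 4.26% of all windows), and the evening element AAATATCT, a clock motif, at 1 each in COR15B, KIN1, CBF2 and CBF3 (in 4.64%). These matches describe the letters and are no evidence of binding.

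Each table holds 1 FPKM value (fragments per kilobase of transcript, scaled to the sequenced fragments) per group, so levels are the authors' group values without an SD. Each log2 fold change is given with its standard error (SE), worked out from the statistic in the deposited tables. A gene is called where the deposited q-value is under 0.05. Depth per library is unknown, and the labels do not say whether the 3 samples of a group are separate sowings, so the p-values may measure technical spread. Each table was scaled on its own, and between the ABA and genotype tables the values of the same group shifted by 0.20 (log2, genotype over ABA table) for Col-0 on ABA and by -0.20 for untreated nup1-1. Levels are for this reason compared within a table. NUP1 itself was still measured in nup1-1. It stood in the authors' deposited table at 12.8 FPKM in Col-0 and 9.23 in nup1-1 without ABA (q = 0.243) and at 13.8 and 7.47 on ABA (q = 0.000272), so the gene-level value does not check the mutant label.

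In untreated seedlings the mutant had more RNA of 4 of the COR genes and less of CBF2. COR15A, COR15B, RD29A and KIN2 were higher in nup1-1 than in Col-0, between 2.27-fold and 6.76-fold. CBF2 was 3.65-fold lower, and CBF1, CBF3, RD29B and KIN1 did not pass the test. Of all 20004 genes tested in this comparison, 2.68% were called higher and 3.92% lower (6.6% in all), against 4 and 1 of the 9. The genotype tables hold the same libraries as the ABA tables, so they are not independent of how the genes were chosen.

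COR15A, which encodes a stromal protein that stabilises chloroplast membranes during freezing, was listed at 22.2 FPKM for Col-0 against 150.3 for nup1-1. Its log2 difference of 2.76 ± 0.33 (SE) was called (q = 0.00198 in the authors' deposited table, the value its smallest p takes). Its neighbour COR15B, which encodes a protein of the same kind, stood at 52.3 and 184 FPKM, a log2 difference of 1.82 ± 0.33 (q = 0.00198 in the authors' deposited table). RD29A, a hydrophilic stress protein gene also named LTI78 and widely used as a reporter of cold and drought, stood at 12.0 and 41.9 FPKM, 1.80 ± 0.29 on the log2 scale (q = 0.00198 in the authors' deposited table). KIN2, a small hydrophilic protein gene, stood at 462 and 1048 FPKM, 1.18 ± 0.32 (q = 0.0142 in the authors' deposited table).

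Copies beside RD29A and KIN2 differed from them. RD29B, also named LTI65, had 1.26 FPKM in untreated Col-0 against 1.19 in untreated nup1-1, a log2 difference of -0.09 ± 0.33 (q = 0.935 in the authors' deposited table). KIN1 stood at 15.0 and 9.08 FPKM, -0.73 ± 0.31, below Col-0 but without a call (q = 0.158 in the authors' deposited table). RD29B and RD29A differed in their log2 genotype differences by -1.89 ± 0.44, and KIN2 and KIN1 by 1.91 ± 0.44, taking the errors of both genes as independent. In both pairs the copy with the higher untreated level was the one that was higher in the mutant.

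The CBF genes did not follow the COR genes in untreated seedlings. CBF2, a factor of the cold response, had 10.8 FPKM in Col-0 against 2.96 in nup1-1, with a log2 difference of -1.87 ± 0.31 (q = 0.00198 in the authors' deposited table). CBF1 stood at 1.69 and 1.72 FPKM (0.03 ± 0.41, q = 0.983 in the authors' deposited table). CBF3, also named DREB1A, stood at 2.30 and 3.11 FPKM (0.43 ± 0.39, q = 0.633 in the authors' deposited table). CBF2 was the highest of the 3 in untreated Col-0, with 6.41 times the level of CBF1 and 4.70 times that of CBF3, and in untreated nup1-1 its level per length was 0.953 of that of CBF3. Summed over the 3 genes, the level was 14.8 FPKM in Col-0 against 7.80 in nup1-1, a log2 difference of -0.93.

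**Figure D1:**
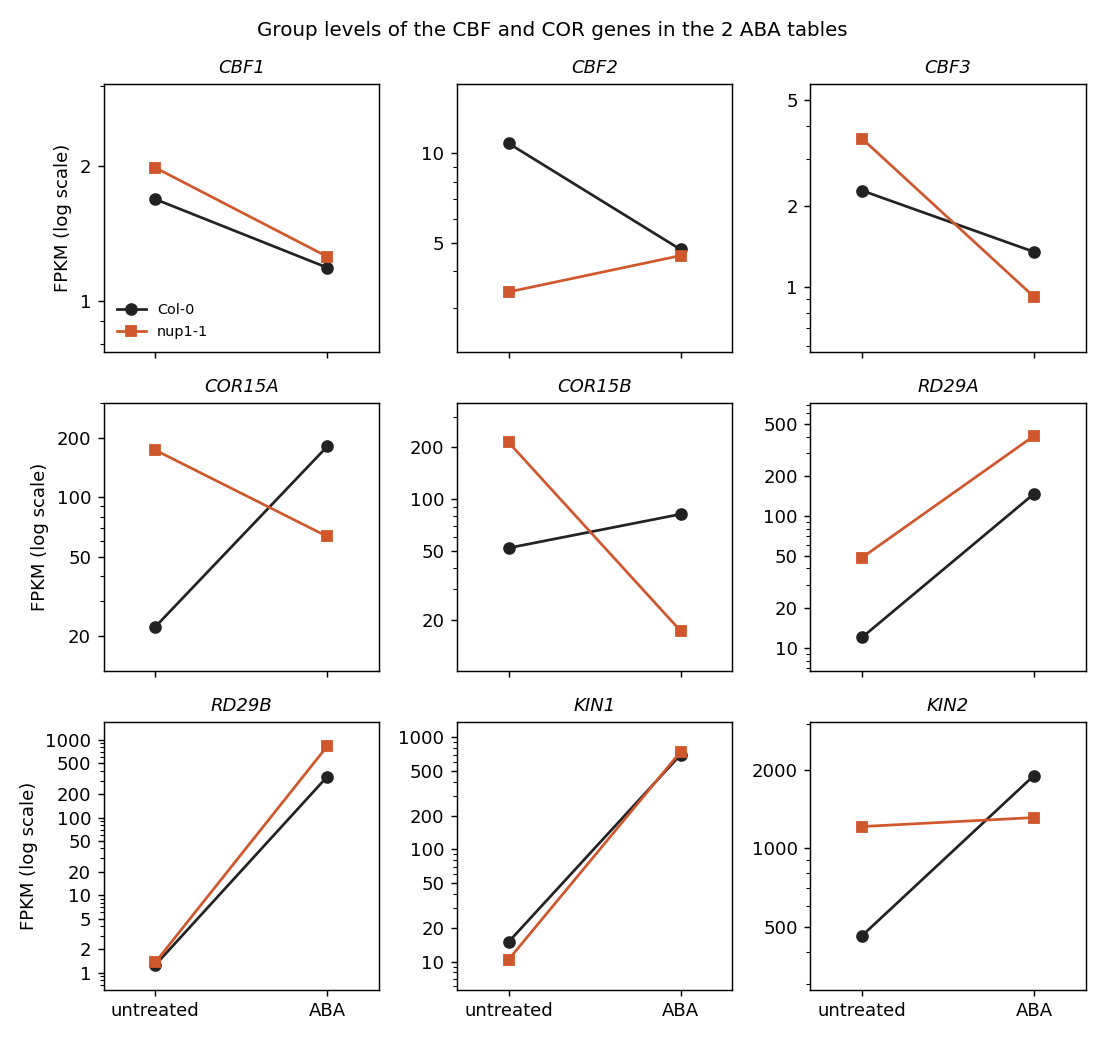
Group levels of the 9 genes in FPKM (log axis, 1 panel per gene with its own range) in untreated and ABA-grown seedlings of Col-0 (circles) and nup1-1 (squares), from the authors' ABA tables, 1 value per group and no error bars. The tables were scaled separately, so a gap between the genotypes carries the scale shift of 0.20 described above. The lines of COR15A and COR15B cross, with nup1-1 above Col-0 without ABA and below it on ABA, while those of RD29A, RD29B and KIN1 rise in both genotypes.

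The response to ABA divided the COR genes into those that ABA raised in both genotypes and those that it raised in Col-0 but not in nup1-1. In Col-0, 6 of the 9 genes were called higher and 1, CBF2, lower, where 7.83% and 7.79% of 20329 tested genes were called (15.6% in all). In nup1-1, 3 were called higher and 3 lower, where 21.2% and 25.3% of 20459 were called (46.6% in all). Nothing is read from these counts, since the ABA responses took part in the choice of the genes.

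RD29B had the largest response of the 9 in both genotypes. In the authors' deposited table it went from 1.26 to 336 FPKM in Col-0, a log2 fold change of 8.06 ± 0.27. In nup1-1 it went from 1.36 to 829 FPKM, 9.25 ± 0.27, and the mutant response exceeded that of Col-0 by 1.19 ± 0.38. KIN1 went from 15.0 to 697 FPKM in Col-0 (5.54 ± 0.25) and from 10.4 to 741 FPKM in nup1-1 (6.15 ± 0.22), with a difference of 0.61 ± 0.33 between the responses. RD29A went from 12.0 to 147 FPKM in Col-0 (3.62 ± 0.23) and from 48.3 to 405 FPKM in nup1-1 (3.07 ± 0.23), a difference of -0.55 ± 0.32. All 3 genes thus rose in both genotypes, and RD29A did so from a higher untreated level in the mutant.

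COR15A went the opposite way in the genotypes. It rose on ABA from 22.2 to 181 FPKM in Col-0 (3.03 ± 0.25) and fell from 174 to 63.5 FPKM in nup1-1 (-1.45 ± 0.23), and these responses differed by -4.48 ± 0.34. COR15B rose from 52.1 to 81.7 FPKM in Col-0 (0.65 ± 0.22) and fell from 213 to 17.2 FPKM in nup1-1 (-3.63 ± 0.25), a difference of -4.27 ± 0.33. Both are among 110 genes, 0.548% of 20090 tested in both tables, that ABA raised in Col-0 and lowered in nup1-1. Nothing is read from this share either, since these responses were in view when the genes were chosen. The Col-0 call of COR15B is the weaker: it is lost at a q of 0.01 and at a log2 fold change of at least 1. Both joined a higher untreated level in nup1-1 with a lower level on ABA.

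KIN2 rose from 461 to 1897 FPKM in Col-0 (2.04 ± 0.24) and stood at 1209 and 1308 FPKM in nup1-1 (0.11 ± 0.24, not called), so that its responses differed by -1.93 ± 0.34. It was the most abundant of the 9 genes in every group. CBF2 fell in Col-0 from 10.8 to 4.74 FPKM (-1.19 ± 0.27) and stood at 3.41 and 4.52 FPKM in nup1-1 (0.41 ± 0.28, not called), a difference of 1.59 ± 0.39 in its responses. CBF3 fell in nup1-1 from 3.59 to 0.918 FPKM (-1.97 ± 0.40) and stood at 2.29 and 1.35 FPKM in Col-0 (-0.76 ± 0.38, not called), a difference of -1.20 ± 0.55. CBF1 was called in neither genotype, with 1.68 and 1.18 FPKM in Col-0 (-0.51 ± 0.39) and 1.98 and 1.25 FPKM in nup1-1 (-0.66 ± 0.38); the 95% interval of the difference of its responses runs from -1.22 to 0.92. None of the CBF genes was called higher on ABA in either genotype, nor had any an unadjusted p under 0.05 in that direction.

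On ABA, nup1-1 had more RNA of both RD29 genes and less of both COR15 genes and of KIN2 than Col-0. Of the 9 genes 2 were called higher and 3 lower, where 15.4% and 23.3% of 20327 tested genes were called (38.7% in all). RD29A had 169 FPKM in Col-0 against 402 in nup1-1 (1.25 ± 0.17), and RD29B at 387 and 823 FPKM (1.09 ± 0.19). COR15B stood at 94.1 and 17.1 FPKM (-2.46 ± 0.17), COR15A at 208 and 63.1 FPKM (-1.72 ± 0.16) and KIN2 at 2179 and 1299 FPKM (-0.75 ± 0.17). These 5 genes had q = 0.000272 in the authors' deposited table, again the value at its smallest p. KIN1 stood at 802 and 736 FPKM (-0.12 ± 0.15, q = 0.539 in the authors' deposited table).

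No CBF gene passed the test between the genotypes on ABA. CBF2 had 5.44 FPKM in Col-0 against 4.49 in nup1-1 (-0.28 ± 0.23, q = 0.359 in the authors' deposited table). CBF3 stood at 1.55 and 0.912 FPKM (-0.77 ± 0.38, q = 0.0938 in the authors' deposited table), and CBF1 at 1.36 and 1.24 FPKM (-0.13 ± 0.35, q = 0.801 in the authors' deposited table). At these low levels the errors were up to 0.38, so differences of a size like that of KIN2 could go without a call. Across the 4 groups the mutant was thus above Col-0 for COR15A, COR15B and KIN2 without ABA and below it on ABA, while RD29A was above Col-0 in both media.

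**Figure D2:**
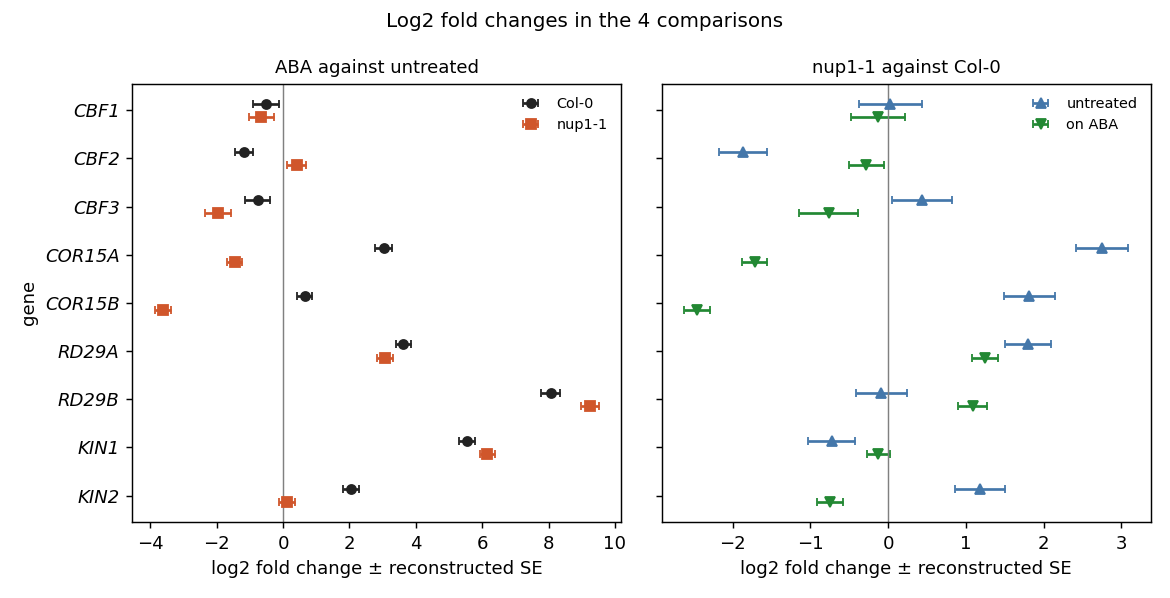
Log2 fold changes of the 9 genes with their reconstructed SE as error bars, for ABA against untreated (left, Col-0 as circles and nup1-1 as squares) and for nup1-1 against Col-0 (right, untreated as upward and on ABA as downward triangles). COR15A, COR15B and KIN2 lie on opposite sides of 0 in the 2 genotype comparisons, and RD29A lies above 0 in both.

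ABA also changed the balance between neighbouring copies. Levels in FPKM are per length, and a ratio of 2 genes within a group of 1 table is free of the scale shift between tables. It still depends on the authors' gene models and on how reads matching both copies were counted, which is unknown. In untreated Col-0, KIN2 stood at 30.8 times the level of KIN1, and on ABA at 2.72 times. In nup1-1 the ratio was 116 untreated and 1.77 on ABA. For RD29B over RD29A the ratio was 0.105 and 2.28 in Col-0 and 0.0282 and 2.05 in nup1-1, so that RD29A was the more abundant copy without ABA and RD29B the more abundant one with it. COR15A over COR15B went from 0.425 to 2.21 in Col-0 and from 0.816 to 3.68 in nup1-1. In each genotype the log2 ABA response was higher for RD29B than for RD29A (by 4.44 ± 0.36 in Col-0 and 6.18 ± 0.35 in nup1-1), for COR15A than for COR15B (2.38 ± 0.33 and 2.17 ± 0.34) and lower for KIN2 than for KIN1 (-3.50 ± 0.35 and -6.04 ± 0.33). The shift toward COR15A on ABA thus came with a rise of the pair in Col-0 and a fall in nup1-1.

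**Figure D3:**
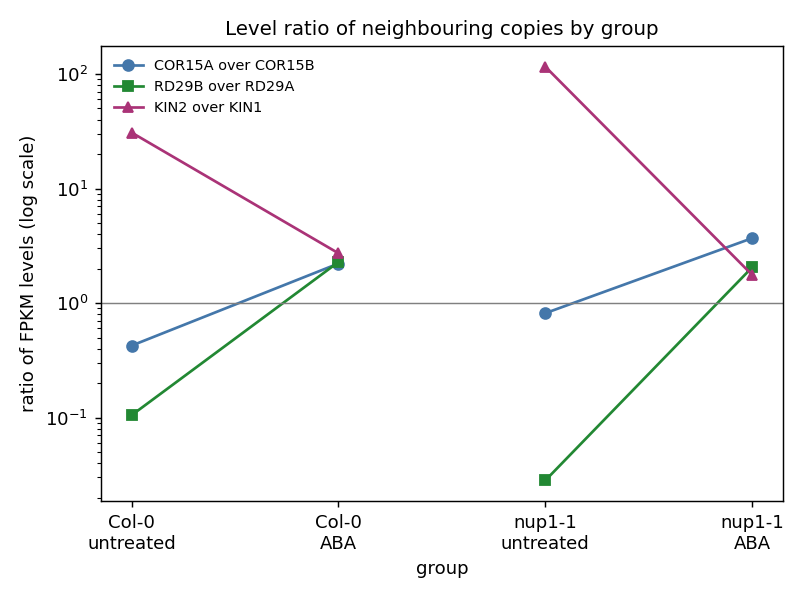
Ratio of the FPKM levels of neighbouring copies in each group (log axis), from the authors' ABA tables, with lines joining untreated and ABA groups of 1 genotype and a grey line at equal levels. The ratio of KIN2 to KIN1 falls on ABA from 30.8 to 2.72 in Col-0 and from 116 to 1.77 in nup1-1, and that of RD29B to RD29A rises from below 1 to 2.28 and 2.05.

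The levels were also summed over copies, which lessens the effect of how reads were split between them but does not remove it, since each FPKM value is divided by its own gene's length. The COR15 sum differed in direction between the genotypes, as its members did. COR15A and COR15B together went from 74.3 to 263 FPKM on ABA in Col-0 (1.82 on the log2 scale) and from 386 to 80.7 FPKM in nup1-1 (-2.26). KIN1 and KIN2 together went from 476 to 2594 FPKM in Col-0 (2.45) and from 1219 to 2050 FPKM in nup1-1 (0.75). RD29A and RD29B together went from 13.2 to 483 FPKM (5.19) and from 49.7 to 1234 FPKM (4.63). No test was made on the sums.

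Other genes of the cold and dehydration response were taken from a list of 24, made with earlier results of these data known. Between untreated genotypes 5 of 24 were called higher in nup1-1 and 3 lower, where 2.68% and 3.92% of all genes tested were. The galactinol synthase genes GOLS2 and GOLS3 serve the first step of raffinose sugar synthesis. They were higher by 3.73 ± 0.47 and 1.77 ± 0.48 on the log2 scale. Their levels were low, at 0.369 and 0.387 FPKM in Col-0 and 4.90 and 1.32 FPKM in nup1-1. The lipid transfer protein genes LTP4 and LTP3 were higher by 3.22 ± 0.47 and 0.79 ± 0.24, with AT4G33980 at 0.66 ± 0.22. BAM3, a chloroplast beta-amylase gene, was lower (-1.29 ± 0.25), as were the early light-induced gene ELIP1 (-1.09 ± 0.22) and RCI2A, for a small membrane protein (-1.02 ± 0.24). The dehydrin genes COR47, ERD10 and ERD14 had 0.09 ± 0.25, 0.37 ± 0.24 and 0.55 ± 0.25 without a call. The list's median was -0.18, beside -0.02 over all genes tested. That of the 6 COR genes was 1.49, with RD29B (-0.09) and KIN1 (-0.73) not called. The COR genes were chosen with results of the same libraries known, so nothing is read from this contrast.

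On ABA, 7 of 23 tested genes of that list rose and BAM3 fell in Col-0, while 10 of 24 rose and 6 fell in nup1-1. Over all genes tested 7.83% rose and 7.79% fell in Col-0 and 21.2% and 25.3% in nup1-1, so the share that fell in nup1-1 was near that of all genes. The largest responses in Col-0 were those of LEA4-5, a late embryogenesis abundant gene (7.19 ± 0.29), the dehydrin gene RAB18 (6.87 ± 0.25), GOLS2 (5.41 ± 0.41) and LTP4 (5.25 ± 0.41). In nup1-1 they were LEA4-5 (9.01 ± 0.28), RAB18 (8.02 ± 0.25), BAM3 (-4.15 ± 0.19) and COR413IM1, for a protein of the inner chloroplast envelope (-2.94 ± 0.23). Between the genotypes on ABA, RAB18 (0.74 ± 0.19) and LEA4-5 (0.88 ± 0.18) were higher in nup1-1, as both RD29 genes were. Of the 23 genes 8 were lower, with BAM3 (-4.31 ± 0.18), COR413IM1 (-2.46 ± 0.20), COR413IM2 (-1.42 ± 0.15) and ERD4 (-1.22 ± 0.15) the lowest. Over all genes tested 15.4% were called higher and 23.3% lower. ABA responses were compared between genotypes by a 2-sided Wald test with Benjamini-Hochberg adjustment, which called 3 of 23 genes above and 8 below Col-0, where it called 4.65% and 11.6% of 19487 genes (16.3% in all). The lowest were GOLS2 (-3.65 ± 0.46), LTP4 (-3.47 ± 0.46), BAM3 (-3.01 ± 0.31) and COR413IM1 (-2.89 ± 0.34). The 3 higher were LEA4-5 (1.82 ± 0.41), RAB18 (1.15 ± 0.36) and ELIP1 (0.77 ± 0.28). GOLS2 and LTP4 still rose on ABA in nup1-1, by 1.75 and 1.78. Without ABA they stood at 0.369 and 1.05 FPKM in Col-0 and at 4.90 and 9.77 FPKM in nup1-1. Neither was called between the genotypes on ABA (q = 0.715 and 0.229 in the authors' deposited table).

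**Figure D4:**
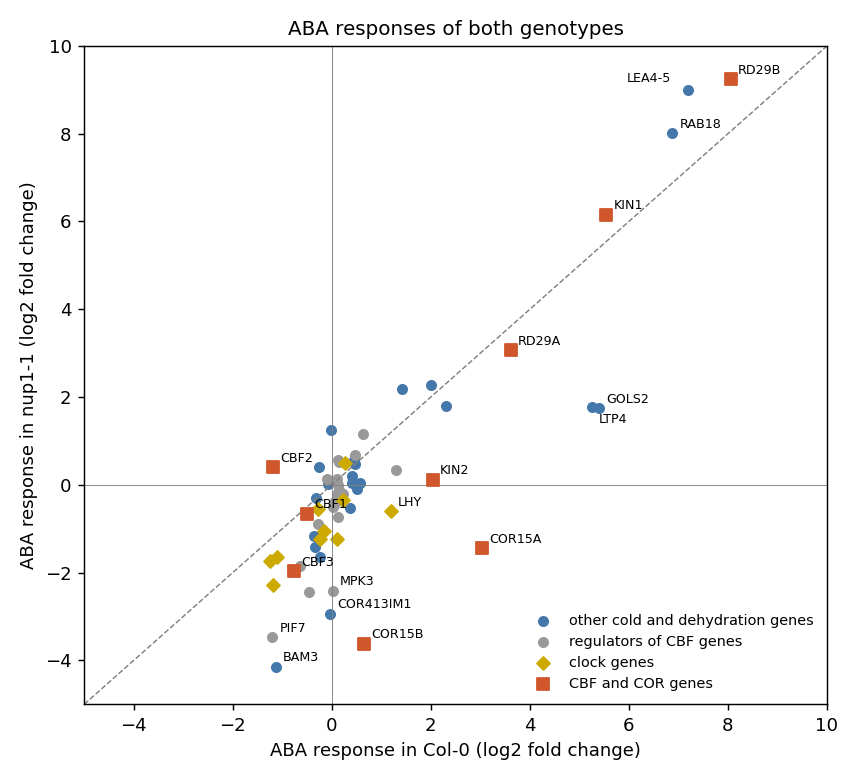
ABA responses as log2 fold changes in Col-0 (horizontal) and nup1-1 (vertical) for the CBF and COR genes (squares), the other cold and dehydration genes, regulators of CBF genes and clock genes (points), with a dashed line at equal responses. COR15A, at 3.03 and -1.45, and COR15B, at 0.65 and -3.63, lie below the horizontal axis, and RD29B and KIN1 lie close to the line at the upper right.

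Regulators that act on CBF genes were followed in a list of 22. Without ABA, 2.68% of all genes tested were called higher in nup1-1 and 3.92% lower. Of the 22 regulators, 3 were called higher by the authors' deposited test (7 at an unadjusted p under 0.05) and 0 lower (0 at an unadjusted p under 0.05). They were the light-signalling factors PIF3 (1.18 ± 0.22) and PIF4 (1.00 ± 0.23), known as repressors of CBF genes, and the kinase gene MPK3 (1.26 ± 0.24). ICE1, an activator of CBF3, had -0.08 ± 0.22, and the activators CAMTA1, CAMTA2 and CAMTA3 had 0.53 ± 0.23, 0.31 ± 0.22 and 0.65 ± 0.24, none of them called. On ABA 4 were higher in nup1-1, the helicase gene LOS4 of mRNA export (0.67 ± 0.15), NUP160 (0.59 ± 0.14), the chromatin repressor gene HOS15 (0.46 ± 0.14) and ICE1 (0.45 ± 0.14). The 5 lower ones were PIF7 (-2.17 ± 0.24), SOC1 (-1.71 ± 0.22), MPK3 (-1.18 ± 0.15), SCRM2 (-0.54 ± 0.15) and ZAT12 (-0.51 ± 0.20). Over all genes tested on ABA 15.4% were called higher and 23.3% lower, so both shares were near those of all genes. HOS1, for a pore-associated ubiquitin ligase that acts on ICE1, was called in none of the 4 tables, and its log2 fold changes lay between 0.11 and 0.23.

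ABA raised ICE1 (0.64 ± 0.22), PIF3 (1.29 ± 0.22) and MYB15 (2.37 ± 0.70, from only 0.117 to 0.603 FPKM) in Col-0 and lowered PIF4 (-0.63 ± 0.22) and PIF7 (-1.20 ± 0.24). In nup1-1 it raised 4 and lowered 10 of the 22, where 21.2% and 25.3% of all genes tested were called, so the share raised was near that of all genes. The lowest were PIF7 (-3.47 ± 0.27), SOC1 (-2.44 ± 0.25), MPK3 (-2.41 ± 0.17) and PIF4 (-1.85 ± 0.16). Among the ABRE-binding factors, ABI5 rose by 3.93 ± 0.25 in Col-0 and 4.76 ± 0.21 in nup1-1 and ABF3 by 0.65 ± 0.22 and 0.73 ± 0.15. ABF4 fell in nup1-1 (-0.89 ± 0.17), and none of the 5 was called between untreated genotypes or had an unadjusted p under 0.05 there. On ABA, ABI5 was higher in nup1-1 (0.95 ± 0.15), as were RD29A and RD29B, and ABF4 was lower (-0.85 ± 0.16).

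Among the other DREB factors, DREB2A, a factor of the drought and heat response, rose on ABA in Col-0 (1.26 ± 0.23) and in nup1-1 (2.62 ± 0.17), and DREB2C and DEAR1 fell in both (-1.27 ± 0.27 and -0.82 ± 0.26 in Col-0, -1.31 ± 0.21 and -1.81 ± 0.25 in nup1-1). TINY fell by -2.09 ± 0.24 and -0.80 ± 0.20, and RAP2.1 rose in nup1-1 (0.65 ± 0.25). The level of CBF4, the member of the CBF group known from drought, reached at most 0.536 FPKM in any group. CBF4 was tested only for ABA in nup1-1 and between the genotypes on ABA, and was called in neither. For ABA in nup1-1 it had 2.01 ± 1.14 (p = 0.0275 and q = 0.0579 in the authors' deposited test). DDF1 was not tested in any table, and DDF2 was listed at 0 in every group. Without ABA, TINY was lower in nup1-1 (-0.94 ± 0.24), the 1 call among 6 tested, where 6.6% of all genes tested were called. On ABA, DREB2A (0.74 ± 0.15) and RAP2.1 (0.75 ± 0.22) were higher in nup1-1 and DEAR1 lower (-1.05 ± 0.23).

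Among the 7 early cold-induced factors outside the CBF group, MYB73 was higher in untreated nup1-1 (1.33 ± 0.34) and 0 were lower. The shares over all genes tested were 2.68% and 3.92%. In the authors' deposited table, 4 were higher at an unadjusted p under 0.05, the others being CZF1, RAV1 and AZF2, and 0 lower. In nup1-1 on ABA 5 of the 7 fell, RAV1 (-2.91 ± 0.16), ERF5 (-1.57 ± 0.18), MYB73 (-1.33 ± 0.22), ZAT10 (-1.15 ± 0.18) and CZF1 (-0.91 ± 0.16), and HSFC1 rose (0.88 ± 0.20). Of all genes tested 25.3% fell there and 21.2% rose. In Col-0 ZAT10 (-0.85 ± 0.24) and ERF5 (-0.83 ± 0.24) fell and AZF2 rose (1.15 ± 0.27). Between the genotypes on ABA, HSFC1 was higher in nup1-1 (0.80 ± 0.19) and RAV1 (-1.94 ± 0.15) and MYB73 (-0.63 ± 0.20) were lower.

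CBF transcripts follow the circadian clock, in which CCA1, LHY and the REVEILLE factors raise and the PRR proteins lower them. Of 10 clock genes 4 were lower in untreated nup1-1, where 3.92% of all genes tested were, and 0 higher, also at an unadjusted p under 0.05, and the 4 were RVE8 (-2.82 ± 0.33), LHY (-1.77 ± 0.37), CCA1 (-1.17 ± 0.30) and RVE4 (-0.94 ± 0.22). These 4 are morning-phased genes, as are PRR9 (-0.05 ± 0.34) and PRR7 (0.14 ± 0.23), which were not called. In the same comparison CBF2 was lower, and CBF1 (0.03 ± 0.41) and CBF3 (0.43 ± 0.39) were not called. On ABA 9 of 10 were lower, where 23.3% of all genes tested were, with LHY (-3.57 ± 0.29), RVE8 (-2.60 ± 0.23), CCA1 (-2.51 ± 0.24) and PRR5 (-1.59 ± 0.15) the lowest, and 0 higher, also at an unadjusted p under 0.05. ABA raised LHY (1.19 ± 0.26) and lowered GI (-1.25 ± 0.23), PRR5 (-1.18 ± 0.23) and PRR7 (-1.10 ± 0.23) in Col-0, and in nup1-1 it lowered 7 of 10 (25.3% of all genes tested), PRR5 the most (-2.28 ± 0.16). The labels do not give the hour of harvest. The part of the clock genes in the CBF and COR levels was not tested.

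**Figure D5:**
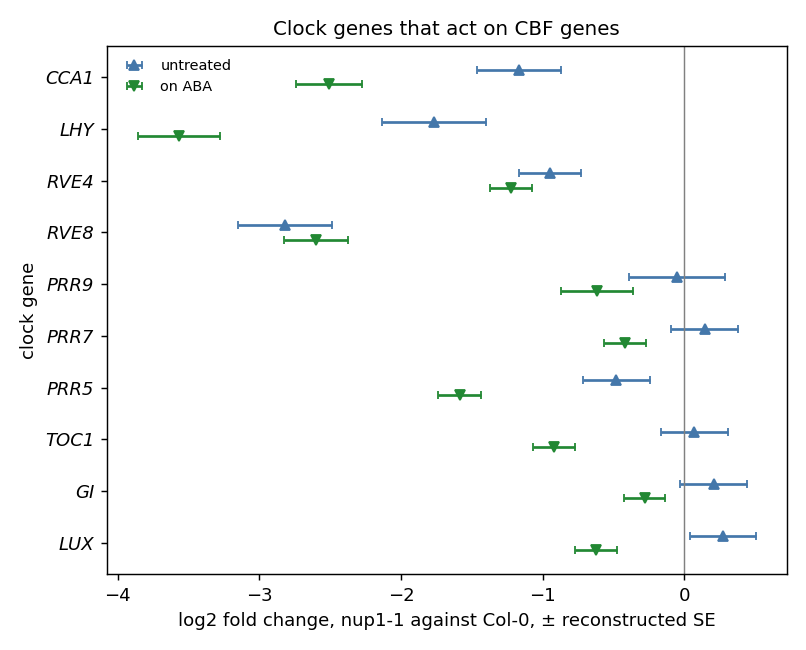
Log2 fold changes of 10 clock genes in nup1-1 against Col-0 with reconstructed SE as error bars, without ABA (upward triangles) and on ABA (downward triangles). CCA1, LHY, RVE4 and RVE8 lie below 0 in both media, and PRR7, PRR9 and TOC1 lie near 0 without ABA.

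The seedlings also differed in markers of tissue and stage. The ABA comparisons were scaled separately for each genotype, so sums from the genotype comparisons are given as well. The summed level of 6 seed and embryo markers was 17.8 FPKM in untreated and 3263 FPKM in ABA-grown Col-0, and 7.06 and 5536 FPKM in nup1-1, with none at 0. In the genotype comparisons these markers summed to 17.8 FPKM in Col-0 and 6.16 in nup1-1 without ABA, and to 3749 and 5498 on ABA. Between the genotypes on ABA 4 were called higher in nup1-1 and 1 lower, where 15.4% and 23.3% of all genes tested were. The lower one was SESA3 (10.6 FPKM in Col-0 and 3.03 in nup1-1), and CRA1 was not called (1502 and 1331 FPKM). All 6 markers rose on ABA in Col-0 and 5 in nup1-1, and 3 were lower in untreated nup1-1. Over all genes tested 7.83% rose in Col-0 and 21.2% in nup1-1, and 3.92% were lower in untreated nup1-1. The markers that rose thus moved with RD29B and KIN1 on ABA. Of 5 green tissue markers RBCS1A had failed estimates listed at 0 in the tables with Col-0. The other 4 summed to 16162 FPKM in untreated and 6570 FPKM in ABA-grown Col-0 and to 8883 and 1574 FPKM in nup1-1. In the genotype comparisons they summed to 16207 FPKM in Col-0 and 7739 in nup1-1 without ABA, and to 7572 and 1562 on ABA. All 4 fell on ABA, with medians of -1.39 in Col-0 and -2.37 over all 5 in nup1-1. On ABA they were lower in nup1-1 (median -2.04). Over all genes tested 7.79% fell in Col-0 and 25.3% in nup1-1. Lower in nup1-1 were 3.92% without ABA and 23.3% on ABA. Without ABA, CA1 (-1.16 ± 0.38) was the 1 green marker called, and all 4 had an unadjusted p under 0.05. COR15A and COR15B, whose products are chloroplast proteins, were higher there. The summed level of 3 root hair markers was 37.0 and 47.9 FPKM in Col-0 without and with ABA and 54.6 and 114 FPKM in nup1-1, with none at 0. In the genotype comparisons these markers summed to 37.1 FPKM in Col-0 and 47.6 in nup1-1 without ABA, and to 55.1 and 113 on ABA. Without ABA 0 of these 3 markers were called (1 higher at an unadjusted p under 0.05 in the authors' deposited test), and on ABA 3 were higher in nup1-1. Their median log2 response was 0.38 in Col-0. There 0 of 3 were called by the authors' deposited test and 0 had an unadjusted p under 0.05. In nup1-1 the median was 0.76, and 3 of 3 rose. Over all genes tested 7.83% rose in Col-0 and 21.2% in nup1-1, and on ABA 15.4% were higher in nup1-1. The difference between the genotypes passed the Wald test for EXPA7 (1.15 ± 0.28) and not for COBL9 or PRP3. In RNA of seedlings, fewer cells of a type and less RNA per cell cannot be told apart, and the part of tissue make-up in the COR values was not tested.

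Genes with the most similar pattern were sought over 3 log2 differences among the 4 groups, the ABA responses of both genotypes and the untreated genotype difference, by Euclidean distance among 19265 other genes. RD29B was nearest to the embryo gene EM6 (distance 0.35), AT5G01300 (0.45) and AT2G15010 (0.61). The nearest to COR15A were AT2G18150 (0.61), AT1G52000 (0.63) and IDA (0.67), and those to COR15B were SAUR26 (0.30), AT3G60420 (0.32) and AT1G02610 (0.32). KIN2 was nearest to the sulfate transporter gene SULTR1;3 (0.27), AT4G37483 (0.33) and the ACC synthase gene ACS7 (0.33), KIN1 to AT1G22600 (0.63), AT1G02700 (0.70) and AT5G43770 (0.94), and RD29A to DIP2 (0.66), SUFE2 (0.66) and ST2A (0.72). CBF2 was nearest to AT5G66740 (0.31), ABCI8 (0.42) and AT2G21020 (0.43), CBF3 to TPPE (0.08), XIP1 (0.09) and GSL04 (0.13), and CBF1 to ROPGEF4 (0.05), AT4G18530 (0.06) and AT2G20720 (0.07). None of the 9 genes had another of the 9 among its nearest 3. With 3 places among 19265 genes, this cannot show whether the 9 share a pattern. The ABA responses, in view when the genes were chosen, also enter the distance.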

How the data were processed

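RNA of seedlings was sequenced in 12 samples, grouped by the genotype and treatment in the titles. Per the submitters' processing notes the tools were TopHat, Trimmomatic and FastQC and the build was TAIR10. The sources used here give neither their versions nor the program that wrote the tables. The authors deposited 4 gene-level comparison tables with an FPKM value per group, a test statistic (a score) and p-values and q-values per gene. The q-values matched p-values adjusted by Benjamini-Hochberg over tested genes, and the smallest p was 5e-05. Library depths are unknown, and 286 rows that join gene models were kept in the tables, none of them a member.

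Log2 fold changes were computed from the deposited FPKM values as second over first group with no pseudocount. A scale factor (1.74 in each table) turned the statistic into a normal deviate, and the log2 fold change over that deviate is the SE. The Wald test of the difference of ABA responses is approximate, used genes at 1 FPKM or more in the highest group, and was tested on simulated data; the ABA tables share no library. Members and lists were chosen with earlier results of these data known. Genes of the lists were named by a rule: up to 4 with the largest change among those called, or all in a list with 5 or fewer calls, and some uncalled genes were named after their values were seen. Sequences are from RefSeq on TAIR10.1, where all 26159 gene models compared overlapped the authors' intervals on the nuclear chromosomes and 40.5% had the same start or end. Alternatives were other q and fold thresholds, an FPKM filter, pseudocounts, centring, other SEs, the genotype tables, summed copies and other promoter windows. The sums and the windows of 500 bases or before the authors' models were chosen after seeing the data. Python 3.11.15, pandas 2.3.3, scipy 1.17.1 and Biopython 1.88 were used.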

Additional observations from a re-analysis of the deposited data

Results flagged for a closer look

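In the lists beside the CBF and COR genes, the ABA response of 38 of 85 tested genes differed between genotypes. The test was the 2-sided Wald test with Benjamini-Hochberg adjustment, which called 16.3% of all 19487 genes. The lists were made with earlier results of these data known. Values are log2 responses of nup1-1 minus those of Col-0. Among regulators of CBF genes the differences were -2.43 for MPK3, -2.27 for PIF7, -1.97 for SOC1, -1.22 for PIF4, -0.95 for PIF3 and -0.86 for CAMTA3. Clock genes had -1.80 for LHY, -1.33 for CCA1, -1.10 for PRR5, -0.98 for TOC1 and -0.88 for LUX. Other DREB factors had 1.36 for DREB2A, 1.29 for TINY and -0.99 for DEAR1. The cold and dehydration list had -3.65 for GOLS2, -3.47 for LTP4, -3.01 for BAM3, -2.89 for COR413IM1, -1.40 for AT4G33980, -1.07 for ERD4, -0.91 for COR27, -0.81 for COR413IM2, 0.77 for ELIP1, 1.15 for RAB18 and 1.82 for LEA4-5. Early cold-induced factors had -2.49 for RAV1, -1.95 for MYB73, -0.78 for CZF1 and 1.16 for HSFC1, and the bZIP gene ABF4 had -0.85. Markers of seed and embryo had 1.5 for EM6, 1.59 for EM1, 1.81 for CRA1, 2.38 for OLEO1 and 2.83 for OLEO2, those of green tissue -1.07 for LHCB2.1 and -2.35 for CA1, and the root hair marker EXPA7 had 1.15.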

How the results depend on the processing

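The counts of CBF and COR genes called in the 4 comparisons stayed within 1.5 times of those given above under a q of 0.01, a log2 fold change of at least 1, and an FPKM filter with recomputed q-values. Their 36 log2 fold changes moved by less than 1 SE with a pseudocount of 0.1 FPKM or with centring. With a pseudocount of 1 FPKM 3 moved further, RD29B to 7.22 in Col-0 and 8.46 in nup1-1 and CBF3 to -1.26 in nup1-1 on ABA. The differences of the ABA responses of the 9 genes moved by less than 1 SE with a pseudocount of 1 FPKM or with centring; dropping the filter or using SEs from the deposited p cannot move them, and the genotype tables hold the same group values rescaled. Of the differences called in other listed genes, 9 lost their call with a pseudocount of 1 FPKM, among them CCA1 and LHY, and 3 with SEs from the deposited p (DEAR1, OLEO1 and EM6). EM6 also lost it with centring and from the genotype tables. Summing copies turned the sign of values that were not called: KIN1 and RD29B between untreated genotypes went from -0.73 and -0.09 to 1.15 and 1.70, CBF1 and CBF3 there from 0.03 and 0.43 to -0.93, and CBF2 in nup1-1 on ABA from 0.41 to -0.42. A q of 0.01 removes the calls of KIN2 between untreated genotypes and of COR15B in Col-0 on ABA, and a log2 fold change of at least 1 removes COR15B in Col-0 on ABA and KIN2 between genotypes on ABA. The promoter counts depend on the start used: CCGAC was in 3 of the 6 COR genes before the RefSeq start and in 6 before the authors' models. No paired analysis was possible because each table holds 1 value per group and none per library, and for the same reason no replicate was left out.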

Other observations

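In the table for ABA in nup1-1, 1 cell stands in an unnamed column, beside COR15A. It holds 2.73, which equals the untreated FPKM value of COR15A over its ABA value in that table.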
